A study of Capra hircus with 6 samples.

Results

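The collagen chain genes are the genes named COL, a type number, A and a chain number, and 42 of the 17504 genes in the deposited tables were matched to such a name. A further 1036 IDs had no symbol match and were not searched for chains. They were chosen by that name alone and grouped by the structure their proteins build: 10 fibrillar chains, 6 basement-membrane (type IV) chains, 5 beaded-filament (type VI) chains, 10 FACIT chains (fibril-associated collagens with interrupted triple helices), 3 network chains (types VIII and X), 2 multiplexins, 4 transmembrane chains and 2 others (COL26A1 and COL28A1). COL5A1 and COL7A1 are not analysed here. RNA from whole ovaries of 6 goats (Capra hircus), all taken in the follicular phase, was sequenced: 3 Tibetan goats, labelled non-prolific, and 3 Jintang black goats, labelled prolific. Each library is 1 goat. Neither age nor whether 1 ovary or both were sampled is stated in the labels. Expression is in FPKM (sequenced fragments scaled by transcript length and library size), so that levels of chains of different length can be set side by side.

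Collagens are triple helices of alpha chains, each chain with glycine at regular intervals. Fibrillar collagens form the cables of the ovarian stroma and capsule, FACIT chains sit on the surface of those cables, type VI collagen forms beaded microfilaments around cells, and type IV collagen forms the sheet of the basement membranes around follicles, vessels and smooth muscle. In the ovary this matrix is rebuilt with each cycle, as follicles grow and as the corpus luteum forms and regresses, and the basal lamina of the follicle changes its type IV chains as the follicle grows.

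Libraries summed to between 602255 and 682801 FPKM, with 12617 to 13131 genes at 1 FPKM or more. Ovarian markers were present in every library, among them NR5A1 (lowest value 19.3 FPKM), GATA4 (31.7), WT1 (7.47) and INHA (9.56), while FSHR was listed at 0 in Tibetan 1. Of 10 ovarian identity genes, 0 passed the test between the breeds, and their summed level spanned 338 to 2516 FPKM in the Tibetan goats and 451 to 9360.4 FPKM in the Jintang goats. In Jintang 2, CYP11A1 and STAR held 5995 and 3130 FPKM of that sum. Of the 10 genes, 4 had a positive and 6 a negative log2 fold change, among the latter GATA4 (-1.10) and WT1 (-1.23). Jintang 1 and Jintang 2 had the highest sums of luteal cell markers, 6405 and 19729 FPKM over the 7 found of 8. The sums were 506 FPKM in Jintang 3 and 360.4, 553 and 2569 FPKM in Tibetan 1, 2 and 3. TIMP1 alone held 5304 FPKM in Jintang 1 and 9215 FPKM in Jintang 2. STAR, CYP11A1, SCARB1 and LHCGR were at 138.95, 515, 114 and 5.71 FPKM in Jintang 1. In Tibetan 3 they were higher, at 139.38, 912, 156 and 53.4 FPKM. PTGFR (274 against 9.23 FPKM) and PRLR (53.4 against 2.03 FPKM) were higher in Jintang 1 than in Tibetan 3. Theca markers (5 found of 6, some of them also in the luteal list) summed to between 161 and 1908 FPKM in Tibetan and between 324 and 9189 FPKM in Jintang ovaries. The Jintang 2 sum came mostly from the CYP11A1 and STAR values given above. CYP17A1 was at 16.3, 152 and 719 FPKM in Tibetan 1, 2 and 3, against 1.99, 4.24 and 103 FPKM in Jintang 1, 2 and 3 (log2 fold change -3.39, SE 1.58, limma adjusted p = 0.743). Of the 5 theca markers, 3 had a positive and 2 a negative log2 fold change. In whole tissue, fewer cells of a type and less RNA per cell cannot be told apart.

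Collagen chains together held 0.938%, 0.663% and 0.709% of the FPKM of Tibetan 1, 2 and 3 (0.770% ± 0.148, SD, n = 3), and 2.04%, 1.28% and 0.650% of Jintang 1, 2 and 3 (1.33% ± 0.697, SD, n = 3). Jintang 1 and 2 lay above all Tibetan ovaries and Jintang 3 below all of them. The difference of the breed means was 0.555 percentage points, 0.197 without Jintang 1 and 0.893 without Jintang 3. Fibrillar chains made up 74.9% and 67.5% of the collagen FPKM in Jintang 1 and 2, and between 39.3% (Tibetan 3) and 59.0% (Tibetan 2) in the other 4 ovaries. Type VI chains ranged from 14.9% (Jintang 1) to 37.7% (Tibetan 1) of the collagen FPKM, and type IV chains from 4.99% (Tibetan 1) to 21.0% (Tibetan 3). FACIT chains held between 1.92% and 6.49%, multiplexins between 1.58% and 2.63%, and network, transmembrane and other chains each under 1% in every ovary. The collagen RNA pool was concentrated in few genes: the 8 highest chains of a library held between 86.0% and 92.9% of it.

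**Figure D1:**
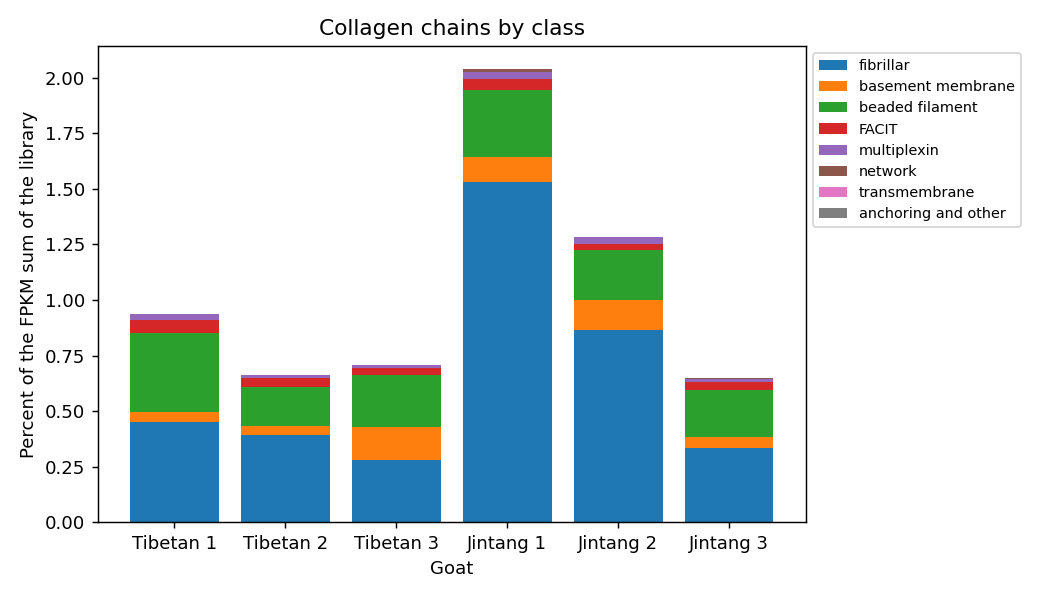
Stacked bars give the percent of a library's FPKM sum held by each class of collagen chains (y axis) in each of the 6 goats (x axis). The Jintang 1 bar reaches 2.04% and the Jintang 2 bar 1.28%, and most of the difference from the other 4 goats is in the fibrillar segment.

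COL1A1 and COL1A2 encode the alpha-1 and alpha-2 chains of type I collagen, the main cable-forming collagen, and COL3A1 encodes type III collagen, its partner in stretchable tissues. COL1A1 stood at 800.0, 825 and 441 FPKM in Tibetan goats 1, 2 and 3, against 2931, 1737 and 701 FPKM in Jintang goats 1, 2 and 3. COL1A2 was at 599.8, 729.7 and 652 FPKM against 3124, 1652 and 555 FPKM. COL3A1 was at 958, 932 and 475 FPKM against 2921, 1787 and 818 FPKM. Jintang 1 was the highest and Jintang 2 the second highest ovary for all 3 genes, whereas Jintang 3 lay within the Tibetan range for COL1A1 and COL3A1 and below it for COL1A2. In Jintang 1 these were the 9th (COL1A2), 10th (COL1A1) and 11th (COL3A1) most abundant of all genes by FPKM. In Jintang 3 their ranks were 159, 134 and 118. The log2 fold changes, Jintang minus Tibetan on log2(FPKM + 1), were 1.20 (SE 0.57) for COL1A1, 1.11 (SE 0.61) for COL1A2 and 1.11 (SE 0.55) for COL3A1, and none passed limma's test (adjusted p = 0.743 for each).

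COL3A1 and COL1A1 kept close to a fixed proportion while their levels ranged widely. The level of COL3A1 spanned 6.14-fold and that of COL1A1 6.65-fold over the 6 ovaries, but the ratio of COL3A1 to COL1A1 stayed between 0.996 (Jintang 1) and 1.20 (Tibetan 1). The ratio of COL1A1 to COL1A2 varied more, by 1.97-fold, from 0.676 in Tibetan 3 to 1.33 in Tibetan 1. A ratio of FPKM depends on the transcript lengths used by the authors, and it is not the ratio of the chains in the protein. Type I collagen itself contains more alpha-1 than alpha-2 chains.

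The minor fibrillar chains varied in their order over the goats. COL5A2, a type V chain that helps to start fibrils and sets their width, stood at 171, 109 and 53.8 FPKM in Tibetan goats 1, 2 and 3, against 158, 162 and 95.5 FPKM in Jintang goats 1, 2 and 3. Its neighbour in the RefSeq table of assembly ARS1.2 is COL3A1, with 0 protein-coding genes between them. The ratio of COL5A2 to COL3A1, chosen after its values were seen, ran from 0.0542 in Jintang 1 to 0.179 in Tibetan 1. COL11A1, a fibril-starting chain related to type V, was at 6.45, 10.8 and 0.68 FPKM against 29.5, 19.6 and 8.86 FPKM (log2 fold change 1.80, SE 0.72, limma adjusted p = 0.743). This was the smallest unadjusted p of any collagen chain (0.0377), and the breeds overlapped because Tibetan 2 lay above Jintang 3. As in COL1A1 and COL3A1, Jintang 1 was highest, Jintang 2 second, and Jintang 3 within the Tibetan range. COL27A1, a fibrillar chain best known from cartilage, went the other way: 140.2, 49.98 and 37.6 FPKM in the Tibetan ovaries against 29.1, 15.8 and 55.8 FPKM (log2 fold change -1.09, SE 0.58, limma adjusted p = 0.743). Tibetan 1 alone exceeded 100 FPKM, and Jintang 3 lay above Tibetan 2 and 3. COL5A3 was highest in Tibetan 3 (38.2 FPKM) and Jintang 2 (37.0 FPKM) and between 10.4 and 26.7 FPKM elsewhere, and COL24A1 ranged from 0.39 FPKM (Tibetan 3) to 9.71 FPKM (Jintang 1).

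**Figure D2:**
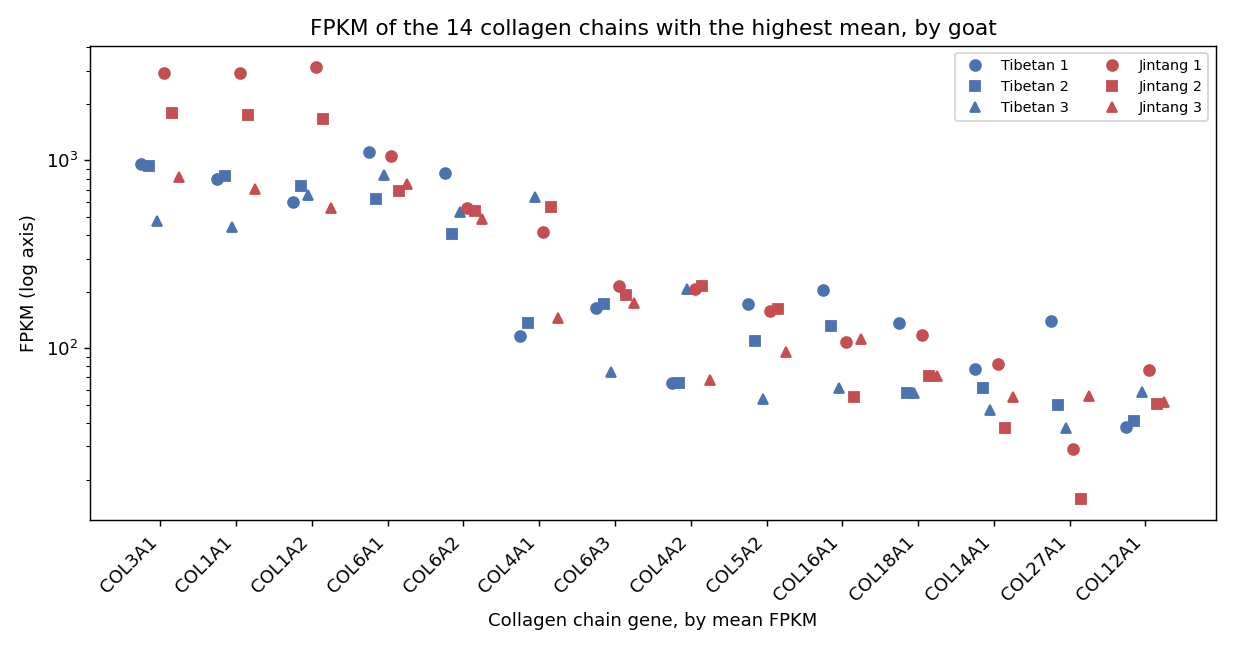
Points give the FPKM (log axis) of the 14 collagen chains with the highest mean, in order of that mean, with 1 symbol for each of 6 goats (blue, Tibetan; red, Jintang). COL3A1, COL1A1 and COL1A2 lie apart in Jintang 1 and 2, COL6A1 spans 1.77-fold over all goats, and COL4A1 and COL4A2 are high in Tibetan 3, Jintang 1 and Jintang 2.

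Beside the fibrillar pattern stand the markers of the cells that make fibrils. The 12 fibroblast and stroma markers other than collagens summed to 1217, 1316 and 448 FPKM in Tibetan 1, 2 and 3 and to 1077, 624 and 1483 FPKM in Jintang 1, 2 and 3, whereas the fibrillar chains summed to 2704, 2673, 1699.7, 9214, 5413 and 2248 FPKM in the same order. The stromal sum was highest in Jintang 3 and second lowest in Jintang 2, while the fibrillar sum was highest in Jintang 1 and second highest in Jintang 2. Single markers differed in order: PDGFRB and MFAP5 were highest in Jintang 1, S100A4 and FBLN5 in Jintang 2, and FBLN1 and TCF21 in Tibetan 1. Of the 12 stromal markers 0 passed the test, and 9 had a positive and 3 a negative log2 fold change (median 0.33). Macrophage markers (8 found of 9) summed to 799 FPKM in Jintang 1 and to between 51.4 and 227 FPKM in the others, and the luteal sums were given above. The part of these cells in the fibrillar levels was not tested.

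The 6 type IV chains formed 3 pairs with 3 different patterns over the goats, and in the RefSeq table each pair consists of neighbours with 0 protein-coding genes between them (COL4A1 with COL4A2, COL4A3 with COL4A4, COL4A5 with COL4A6). COL4A1 and COL4A2 build the trimer found in nearly all basement membranes. COL4A1 was at 117, 137 and 637 FPKM in Tibetan goats 1, 2 and 3, against 416, 566 and 145 FPKM in Jintang goats 1, 2 and 3. COL4A2 was at 65.5, 65.7 and 207 FPKM against 208, 215 and 67.4 FPKM. Both were high in Tibetan 3, Jintang 1 and Jintang 2, and low in the other 3 ovaries. The luteal marker sums given above were also highest in these 3 ovaries, although PTGFR was lowest in Tibetan 3 (9.23 FPKM). Theca sums, which share STAR, CYP11A1 and LHCGR with the luteal sums, were highest there too. They were 1908, 712 and 9189 FPKM in Tibetan 3, Jintang 1 and Jintang 2, against 161, 337 and 324 FPKM in Tibetan 1, Tibetan 2 and Jintang 3. The part of these cells in the COL4A1 and COL4A2 levels was not tested. The ratio of COL4A1 to COL4A2 lay between 1.79 (Tibetan 1) and 3.07 (Tibetan 3), and the breed difference of the log2 ratio was -0.0010 (exact permutation test, 2-sided, p = 1.0).

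COL4A3 and COL4A4 encode chains of a second trimer, known from the kidney glomerulus and other specialised basement membranes. COL4A4 stood at 2.12, 17.5 and 8.04 FPKM in Tibetan and at 15.8, 17.9 and 46.7 FPKM in the Jintang animals (log2 fold change 1.62, SE 0.66, limma adjusted p = 0.743). COL4A3 stood at 0.72, 6.48 and 3.17 FPKM against 1.94, 2.73 and 12.2 FPKM (log2 fold change 0.48, SE 0.69). Both peaked in Jintang 3 and were lowest in Tibetan 1. The ratio of COL4A4 to COL4A3, chosen after its values were seen, was 2.94, 2.70 and 2.54 in Tibetan 1, 2 and 3 and 8.12, 6.55 and 3.82 in Jintang 1, 2 and 3, without overlap between the breeds. Because of that choice the separation is not evidence of a breed difference, and the ratio was not tested. The 10 granulosa cell markers together summed to 193, 408 and 1344 FPKM in Tibetan 1, 2 and 3, against 233, 356 and 370.2 FPKM in the Jintang goats in the same order, with FSHR listed at 0 in Tibetan 1. The members did not share 1 order: AMH, FSHR, HSD17B1 and FST were highest in Jintang 3, INHA, CYP19A1 and INHBB in Tibetan 3, FOXL2 in Tibetan 1, INHBA in Jintang 1 and NR5A2 in Jintang 2. Their part in the COL4A3 and COL4A4 levels was not tested.

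COL4A5 and COL4A6 encode the chains of another kind of trimer, found around smooth muscle and some epithelia. COL4A5 was at 51.1, 33.7 and 33.3 FPKM in Tibetan goats 1, 2 and 3, against 23.3, 21.9 and 32.4 FPKM in Jintang goats 1, 2 and 3. All 3 Jintang values lay below all 3 Tibetan values, by a margin of less than 1 FPKM between Jintang 3 and Tibetan 3 (log2 fold change -0.58, SE 0.29, limma adjusted p = 0.743). COL4A6 was at 45.5, 25.6 and 18.5 FPKM against 14.4, 9.08 and 24.96 FPKM (log2 fold change -0.86, SE 0.44, limma adjusted p = 0.743), and overlapped because Jintang 3 exceeded Tibetan 3. The ratio of COL4A5 to COL4A1 spanned 11.3-fold, from 0.0386 in Jintang 2 to 0.437 in Tibetan 1. The 10 smooth muscle and pericyte markers summed to 7921, 4188 and 5295 FPKM in Tibetan and to 3832, 2118 and 7899 FPKM in Jintang ovaries. This sum was highest in Tibetan 1 and lowest in Jintang 2, as in COL4A5 and COL4A6, and Jintang 3 was close to Tibetan 1. The members did not share 1 order: 2 were highest in Tibetan 1 and 4 in Jintang 3, and 5 were lowest in Jintang 2. RGS5 was lowest in Tibetan 1 (24.0 FPKM) and highest in Jintang 1 (166 FPKM), and CSPG4 was highest in Jintang 2 (13.3 FPKM). Of these markers 0 passed the test and none was at 0, and their part in the levels of COL4A5 and COL4A6 was not tested.

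**Figure D3:**
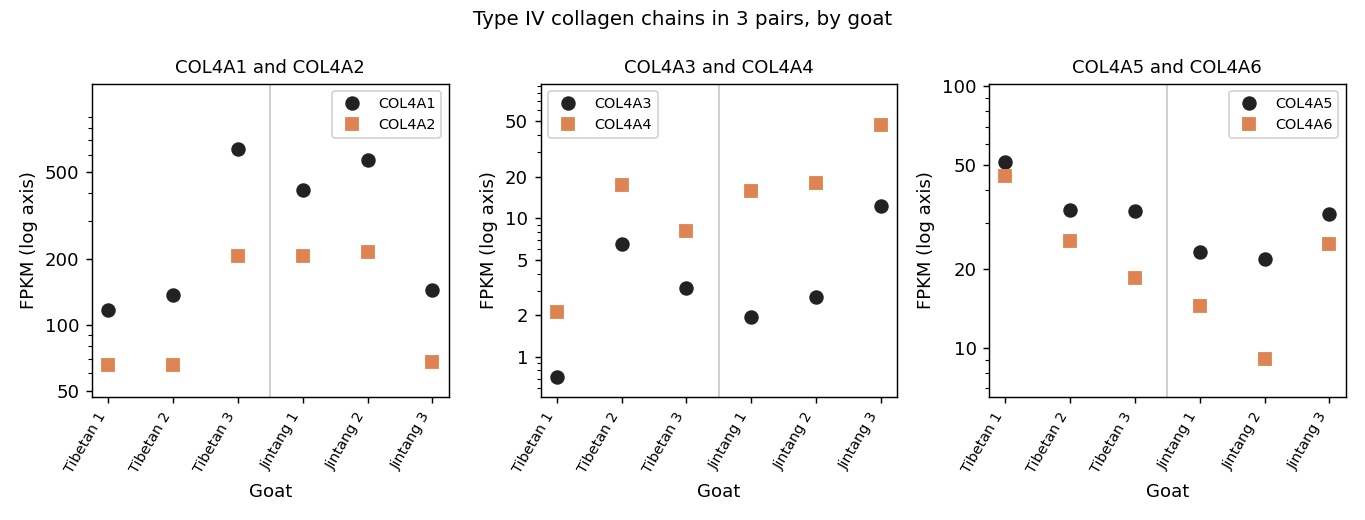
FPKM (log axis) of the 6 type IV chains in 3 pairs, with 1 point for each goat (x axis; the line parts Tibetan from Jintang). COL4A1 and COL4A2 are high in Tibetan 3, Jintang 1 and Jintang 2, COL4A3 and COL4A4 peak in Jintang 3, and COL4A5 and COL4A6 are highest in Tibetan 1.

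The basement-membrane partners of type IV collagen, namely laminins, nidogens, perlecan (HSPG2), agrin, SPARC and the crosslinking peroxidase PXDN, gave 0 calls among 13 tested (9 with a positive and 4 with a negative log2 fold change, median 0.26). PXDN had the smallest p among them, with 26.7, 19.4 and 40.9 FPKM in Tibetan 1, 2 and 3 and 69.6, 68.5 and 28.6 FPKM in Jintang 1, 2 and 3 (limma adjusted p = 0.743). SPARC, a collagen-binding glycoprotein, ran from 713 FPKM (Tibetan 1) to 2073 FPKM (Jintang 1). LAMA5, a laminin chain, ran from 5.55 FPKM (Tibetan 2) to 15.0 FPKM (Jintang 1). In all 3 genes Jintang 1 was the highest and Jintang 2 the second highest ovary.

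Type VI collagen varied least among the abundant classes. COL6A1 stood at 1110.4, 626 and 839 FPKM in Tibetan goats 1, 2 and 3, against 1057, 689 and 748 FPKM in Jintang goats 1, 2 and 3 (log2 fold change -0.03, SE 0.38, 95% interval -0.91 to 0.84). COL6A2, its neighbour in the RefSeq table with 0 protein-coding genes between, was at 857, 406 and 528 FPKM against 557, 536 and 487 FPKM (log2 fold change -0.11, SE 0.37, 95% interval -0.96 to 0.74). The sign of both fold changes depended on the scaling and on single libraries: with median-ratio scaling they were 0.10 and 0.02, and without Tibetan 1 they were 0.17 and 0.18. The COL6A1 value was also above 0 without Jintang 2 (0.09) or Jintang 3 (0.03). COL6A3, the third chain of the classical type VI trimer, was at 164, 171 and 74.8 FPKM in Tibetan and at 214, 192 and 174 FPKM in the Jintang animals, without overlap (log2 fold change 0.58, SE 0.37, limma adjusted p = 0.755). Tibetan 3 had the lowest ratio of COL6A3 to COL6A1 (0.0892), and the other 5 ovaries lay between 0.148 and 0.279. The ratio of COL6A1 to COL6A2 lay between 1.29 and 1.90. COL6A5, an alternative chain expressed in few tissues, reached 3.44 FPKM in Jintang 1 and 3.21 FPKM in Jintang 3, while no other ovary exceeded 1.38 FPKM, and COL6A6 did not exceed 0.50 FPKM.

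Among the FACIT chains, 6 of 10 reached the filter of 1 FPKM in 3 libraries, and 5 of those 6 had a negative log2 fold change, among them COL14A1 at -0.12, which became 0.01 with median-ratio scaling. COL16A1 was at 204, 131 and 61.6 FPKM in Tibetan goats 1, 2 and 3, against 108, 55.3 and 112 FPKM in Jintang goats 1, 2 and 3. COL14A1, which binds fibrils through decorin, was at 77.2, 61.7 and 46.7 FPKM against 82.8, 37.8 and 55.1 FPKM. COL12A1, found in tissues under tension, had 38.2, 41.0 and 58.3 FPKM in the Tibetan and 76.8, 50.2 and 52.0 FPKM in the Jintang goats, and was the only FACIT chain tested with a positive log2 fold change (0.37, SE 0.30). COL9A3, best known from cartilage, was nevertheless present in every ovary, with 20.8, 20.4 and 5.03 FPKM in Tibetan and 8.38, 7.53 and 16.3 FPKM in Jintang ovaries, whereas its partner COL9A1 did not exceed 0.31 FPKM and COL9A2 reached at most 1.58 FPKM. COL22A1, a chain of the muscle-tendon junction, spanned 26.2-fold, from 0.83 FPKM in Jintang 2 to 21.7 FPKM in Tibetan 1. COL21A1 was the only tested FACIT chain without overlap between the breeds, at 4.27, 4.82 and 3.64 FPKM in Tibetan and 3.20, 2.40 and 3.20 FPKM in the Jintang animals (log2 fold change -0.42, SE 0.28, limma adjusted p = 0.758). Tibetan 1 had the highest value of COL16A1, COL9A3 and COL22A1 and Jintang 2 the lowest of COL16A1, COL14A1, COL22A1 and COL21A1. COL19A1 did not exceed 0.04 FPKM and COL20A1 0.71 FPKM, and neither entered the test. No FACIT chain passed the test.

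Multiplexins are basement-membrane-associated collagens that release anti-angiogenic fragments, endostatin in the case of COL18A1. COL15A1 stood at 11.9, 22.9 and 32.2 FPKM in Tibetan goats 1, 2 and 3, against 77.0, 116 and 21.8 FPKM in Jintang goats 1, 2 and 3 (log2 fold change 1.45, SE 0.62, limma adjusted p = 0.743). Jintang 2 and Jintang 1 were the 2 highest ovaries and Tibetan 3 came next, while Jintang 3 lay below Tibetan 2. COL18A1 followed another order, with 137, 57.6 and 58.0 FPKM against 117, 70.9 and 71.5 FPKM (log2 fold change 0.12, SE 0.41). The sign of the COL18A1 value turned when Tibetan 2 (-0.08), Tibetan 3 (-0.08) or Jintang 1 (-0.11) was left out. Endothelial markers (9 found of 10) summed to 182, 284 and 182 FPKM in Tibetan and to 393, 362 and 201 FPKM in Jintang ovaries. The sums were highest in Jintang 1 and 2, and no marker was at 0. Of the 9, 3 were highest in Jintang 1, 5 in Jintang 2 and 1 in Tibetan 2. That 1 was KDR, at 54.3 FPKM in Tibetan 2 and lowest in Jintang 1 (25.1 FPKM). VWF in Jintang 2 (58.1 FPKM) lay below Tibetan 1 and 2 (80.6 and 92.3 FPKM). Of the 9 markers 0 passed the test, and their part in the COL15A1 level was not tested.

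COL8A1 and COL8A2 encode the short chains of type VIII collagen, a hexagonal network made by vascular and other cells. COL8A1 was at 1.79, 3.26 and 5.84 FPKM in Tibetan goats 1, 2 and 3, against 88.5, 12.1 and 2.50 FPKM in Jintang goats 1, 2 and 3. Its span of 49.5-fold was set by Jintang 1, while Jintang 3 lay within the Tibetan range (log2 fold change 1.89, SE 1.02, limma adjusted p = 0.743). COL8A2 ranged from 0.59 FPKM (Jintang 2) to 5.48 FPKM (Jintang 3), and the ratio of COL8A1 to COL8A2 accordingly ran from 0.456 in Jintang 3 to 39.2 in Jintang 1. COL10A1, the network chain of hypertrophic cartilage, was listed above 0 only in Tibetan 3 (0.11 FPKM).

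Transmembrane chains were low throughout. COL13A1, a chain of cell junctions, was at 2.11, 4.57 and 1.65 FPKM in Tibetan and at 2.59, 5.61 and 6.75 FPKM in Jintang ovaries. COL17A1, the hemidesmosome collagen of epithelia, ranged from 0.72 FPKM (Jintang 2) to 4.80 FPKM (Tibetan 1), and COL23A1 from 0.52 FPKM (Jintang 1) to 2.96 FPKM (Tibetan 1). COL25A1 did not exceed 0.08 FPKM, COL26A1 0.41 FPKM and COL28A1 1.81 FPKM. Surface epithelium markers (7 found of 9) summed to between 20.9 and 139 FPKM in Tibetan and between 18.4 and 258 FPKM in Jintang ovaries. KRT18 alone held 243 FPKM in Jintang 2. KRT7 (6.96, 4.51 and 10.7 FPKM in Tibetan against 0.80, 1.63 and 1.91 FPKM in Jintang ovaries) and EPCAM were lower in Jintang ovaries without overlap, where 6.70% of all genes tested were. Neither passed (limma adjusted p = 0.743 for both). Of the 5 tested, 2 had a positive and 3 a negative log2 fold change. LGALS7 was listed at 0 in 4 of 6 libraries and KRT8 was at no more than 0.61 FPKM. The part of these markers in the COL17A1 level was not tested.

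Of the fibrillar chains of cartilage, COL2A1 did not exceed 0.26 FPKM and COL11A2 0.49 FPKM in any ovary. The fibrillar chains COL11A1 and COL27A1 and the FACIT chain COL9A3 were higher, as given above. Of 10 cartilage and bone genes 8 were found, and ACAN (at most 0.31 FPKM), MATN1 (at most 0.21 FPKM) and HAPLN1 (at most 0.92 FPKM) were under 1 FPKM in every library. MATN3, a cartilage matrilin, was at 10.7 FPKM in Tibetan 2, 15.3 FPKM in Jintang 1, 2.67 FPKM in Jintang 2 and 19.8 FPKM in Jintang 3, and at no more than 0.32 FPKM in Tibetan 1 and 3. IBSP, a bone sialoprotein gene, reached 44.7 FPKM in Jintang 2 and 3.78 FPKM in Jintang 1, while no other ovary exceeded 0.17 FPKM. The list summed to between 2.01 and 13.2 FPKM in Tibetan and between 23.2 and 49.3 FPKM in Jintang ovaries, and 0 of 3 tested genes passed. In all, 9 collagen chains stayed under 1 FPKM in every ovary, and COL9A2 and COL28A1 reached it in fewer than 3, so that 31 of 42 chains entered the test.

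**Figure D4:**
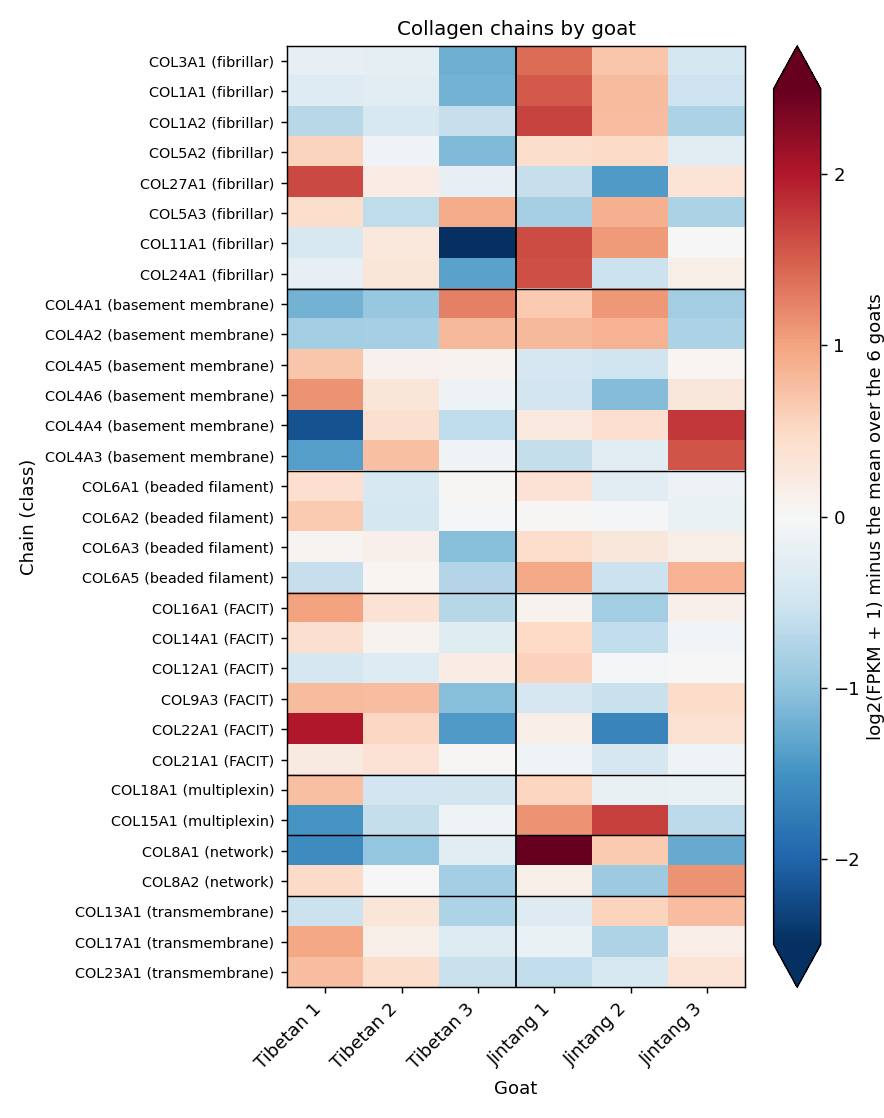
Rows are the 31 collagen chains tested, grouped by class, and columns are the 6 goats; colour gives log2(FPKM + 1) minus the mean of that chain over the goats. Tibetan 1 holds the highest value of 12 chains and Jintang 1 of 10, while Tibetan 3 and Jintang 2 hold the lowest value of 9 chains each.

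The breed comparison asked which ovarian transcripts differ between the prolific and the non-prolific goats. With limma's test over 13067 genes, 0 of 31 collagen chains passed at an adjusted p under 0.05 in either direction, against 0% of all genes in each direction. At an unadjusted p under 0.05, 3 chains were on the Jintang side (COL11A1, COL4A4 and COL15A1) and 0 on the Tibetan side, where 2.82% and 3.35% of all genes tested were. Over both directions these were 9.68% of the chains and 6.17% of all genes. The count of chains past that p was 1 (3.23%) without Tibetan 1 or without Jintang 1, beside 2.57% and 2.69% of all genes. It was 2 (6.45%) without Tibetan 2 and 3 (9.68%) without Jintang 2, beside 5.89% and 4.09% of all genes. It was 6 (19.4%) without Tibetan 3 and 8 (25.8%) without Jintang 3, beside 7.79% and 14.3% of all genes. Breed ranges were fully separate in 1 chain higher (COL6A3) and 2 chains lower in Jintang ovaries (COL4A5 and COL21A1), that is in 3 of 31, beside 3.20% and 6.70% of all genes tested. As shares of the chains, 3.23% and 6.45%, the counts without overlap are close to the background.

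Log2 fold changes of the 31 chains ran from -1.09 (COL27A1) to 1.89 (COL8A1), 18 positive and 13 negative, with a median of 0.37 beside -0.10 over all genes tested. Median-ratio scaling moved these to 0.50 and 0.02. Without Tibetan 3 the median of the chains was -0.02, and without a filter on low values, over all 42 chains, it was -0.03. By class the median was 0.96 for 8 fibrillar, 0.53 for 6 type IV, 0.28 for 4 type VI, -0.38 for 6 FACIT and -0.45 for 3 transmembrane chains. With 1 library left out the fibrillar median ran from 0.42 (without Jintang 1) to 1.28 (without Jintang 3), the type IV median from 0.02 (without Tibetan 1) to 0.84 (without Tibetan 3), and the FACIT median from -0.70 (without Tibetan 3) to 0.01 (without Tibetan 1). For type VI the median was 0.085 if Tibetan 3 was left out, 0.47 if Tibetan 1 was, and -0.03 with a filter of 5 FPKM, and for transmembrane chains it was -0.82 if Tibetan 3 was left out and -0.17 if Tibetan 1 was. Intervals were wide: for COL1A1 the 95% interval of the log2 fold change ran from -0.11 to 2.52, and for COL8A1 from -0.46 to 4.22. In 7 ratios between chains, the exact permutation test (2-sided, 3 against 3 goats, smallest possible p 0.1) gave p between 0.3 and 1.0, and between 0.7 and 1.0 after Benjamini-Hochberg adjustment.

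**Figure D5:**
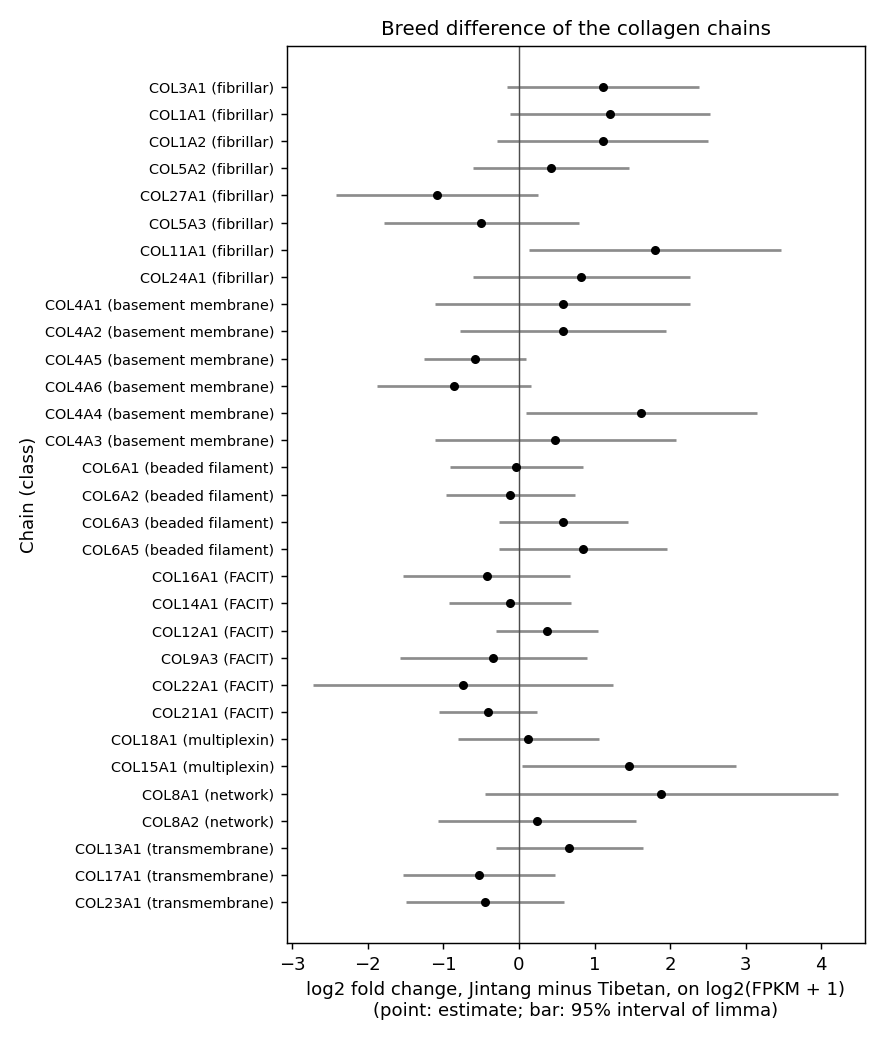
Points give the log2 fold change (Jintang minus Tibetan, on log2(FPKM + 1)) of each of the 31 chains tested and bars its 95% interval from limma with 3 goats per breed. The intervals of COL11A1, COL4A4 and COL15A1 exclude 0 before adjustment, and none passed after adjustment over 13067 genes.

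Genes that fold, export, cut and crosslink collagen gave 0 calls as well. Of 74 genes tested in 8 pathway lists, 57 had a positive and 17 a negative log2 fold change (median 0.24). Without overlap, 9 lay on the Jintang side and 0 on the other, beside 3.20% and 6.70% of all genes tested. At an unadjusted p under 0.05, 10 were on the Jintang side and 1 on the Tibetan side, beside 2.82% and 3.35% of all genes tested. The count over both directions was 11 (14.9%), where 6.17% of all genes were past that p. It was 3 (4.05%) without Jintang 1 and 4 (5.41%) without Tibetan 2, beside 2.69% and 5.89% of all genes. It was 6 (8.11%) without Tibetan 1 or Jintang 2, beside 2.57% and 4.09% of all genes. It was 10 (13.5%) without Tibetan 3 and 20 (27.0%) without Jintang 3, beside 7.79% and 14.3% of all genes. Without Tibetan 2 the pathway share was thus below that of all genes. Some of these genes were described from the same data before the lists were drawn up, so the direction is not independent support for anything.

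Procollagen chains are hydroxylated and folded in the endoplasmic reticulum, and of 19 genes for this step 15 were positive and 4 negative. FKBP10, a collagen-specific prolyl isomerase, was at 50.6, 47.0 and 43.6 FPKM in Tibetan goats 1, 2 and 3, against 84.0, 100.2 and 59.8 FPKM in Jintang goats 1, 2 and 3, without overlap (log2 fold change 0.75, SE 0.28, limma adjusted p = 0.743). P3H1, a prolyl 3-hydroxylase of fibrillar collagen, was at 37.7, 35.5 and 36.0 FPKM against 54.4, 68.0 and 46.4 FPKM, also without overlap. P3H2, which acts mainly on type IV collagen, had 94.1 FPKM in Jintang 1 and 159 FPKM in Jintang 2, and 25.3 to 32.4 FPKM in the remaining 4 ovaries. In the 7 genes of procollagen export, all positive, the smallest limma adjusted p was 0.798, with SEC23A at 15.4 to 28.3 FPKM in Tibetan and 21.0 to 32.4 FPKM in Jintang ovaries, SEC24D at 14.2 to 35.1 against 17.3 to 42.3 FPKM, and SAR1B at 8.24 to 23.8 against 9.86 to 24.0 FPKM.

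The removal of the propeptides lets fibrils form, and 7 of 7 tested genes of this step, the proteinases and the enhancers PCOLCE and PCOLCE2, were positive. ADAMTS2, the main procollagen N-proteinase, was at 5.94, 7.93 and 4.24 FPKM in Tibetan goats 1, 2 and 3, against 19.5, 14.7 and 10.2 FPKM in Jintang goats 1, 2 and 3, without overlap (log2 fold change 1.16, SE 0.33, limma adjusted p = 0.743). Its relative ADAMTS14 was at 0.77, 0.75 and 1.69 FPKM against 21.8, 59.1 and 1.73 FPKM, without overlap, although Jintang 3 and Tibetan 3 were nearly level (log2 fold change 2.94, SE 0.97, limma adjusted p = 0.743). Without Jintang 3, ADAMTS14 passed limma's test (log2 fold change 4.19, SE 0.47, adjusted p = 0.0400), as 1 of 13 genes among all tested. PCOLCE2, an enhancer of C-propeptide cleavage, was at 5.67, 4.71 and 13.8 FPKM against 20.2, 20.3 and 12.1 FPKM.

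Lysyl oxidases crosslink the finished fibrils, and 4 of 5 were positive. LOX was at 3.47, 3.69 and 5.43 FPKM in Tibetan and at 16.1, 22.1 and 7.38 FPKM in the Jintang animals, without overlap (log2 fold change 1.54, SE 0.41, limma adjusted p = 0.743). LOXL2 was at 13.8, 12.9 and 9.90 FPKM against 31.1, 35.8 and 14.2 FPKM, also without overlap, and LOXL1 at 79.0, 52.0 and 51.0 FPKM against 141, 74.9 and 76.4 FPKM. In LOX and LOXL2, as in COL1A1, COL1A2 and COL3A1, the 2 highest ovaries were Jintang 1 and 2, but here Jintang 3 also lay above all Tibetan ovaries.

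Collagen receptors gave 0 calls among 9 tested (6 positive, 3 negative, median 0.13). ITGA2, an integrin chain that binds fibrillar collagen, ranged from 0.33 FPKM (Tibetan 1) to 3.92 FPKM (Jintang 2), DDR1, a receptor kinase of epithelial cells, from 18.5 FPKM (Jintang 2) to 57.0 FPKM (Tibetan 3), and ITGA10 from 0.65 FPKM (Tibetan 3) to 4.67 FPKM (Jintang 1). Of 7 tested genes of collagen breakdown, 6 were positive. MMP9, a gelatinase that also cuts type IV collagen, was at 3.19, 4.90 and 0.45 FPKM in Tibetan and at 20.7, 6.97 and 18.0 FPKM in the Jintang animals, without overlap (log2 fold change 2.17, SE 0.59, limma adjusted p = 0.743). FAP, a protease of activated fibroblasts, had 16.4, 15.4 and 5.01 FPKM in the Tibetan and 82.4, 24.96 and 17.1 FPKM in the Jintang goats, and MMP16, a membrane-bound metalloproteinase, had 20.4, 12.3 and 7.53 FPKM against 3.78, 2.52 and 9.97 FPKM. The interstitial collagenases MMP1 and MMP13 did not exceed 0.45 and 0.15 FPKM.

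Proteoglycans that coat fibrils did not follow type I collagen as a group (7 tested, 3 positive, 4 negative, median -0.10). DCN, decorin, ran from 531 FPKM in Jintang 2 to 1370.2 FPKM in Jintang 3. LUM, lumican, was at 60.1, 149 and 11.3 FPKM in Tibetan and at 819, 159 and 116 FPKM in Jintang ovaries, PRELP at 308, 152 and 89.3 FPKM against 56.2, 39.3 and 167 FPKM, and OGN at 19.9, 64.8 and 23.1 FPKM against 14.4, 10.97 and 31.0 FPKM. Jintang 2, the ovary with the second highest fibrillar sum, was the lowest in 6 of these 7 genes.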

How the data were processed

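Total RNA of the ovary of each of 6 goats was isolated with TRIzol, and NEBNext reagents were used for the libraries, per the labels' protocols. The authors deposited 1 table of FPKM values per goat. The submitters' processing notes name RSEM 1.2.0, Bowtie2 2.1.0 and TopHat2 2.0.10 but not what each did. Build and gene annotation: not given in the sources used here. Hence no coordinates or sequences are printed. A table of the whole series, with 6 columns, was not used.

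Symbols came from the RefSeq gene table of assembly ARS1.2: 16459 of 17504 IDs were found by GeneID and 9 more by accession. The 13067 genes that reached 1 FPKM in 3 or more libraries entered limma 3.58.1 under R 4.3.3 (lmFit, eBayes with trend) on log2(FPKM + 1), breed as the only term, 2-sided, with Benjamini-Hochberg adjustment over all genes tested and a threshold of 0.05. Fold changes on this scale understate the change of low genes. Ratios were tested with exact permutation in scipy 1.17.1. The fit was first tested on simulated data. FPKM keeps no counts: the spacing of low values put relative depth between 0.922 and 1.03 (Tibetan 1 at 1), and absolute depth is unknown.

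The collagen chains, the 8 pathway lists and the 10 marker lists were chosen with earlier results of these data known. Named with values are the 4 highest chains of each class, the 10 chains with the smallest p, and up to 3 genes of each pathway list with the smallest p; other chains are named to account for all 42, and DCN, MMP1, MMP13 and the marker genes were named after their values were seen. The planned ratio of COL5A1 to COL5A2 was not computed. Alternatives were other pseudocounts (0.1 and 0.01), filters, scalings and variance models, the replicate number as a block, and each library left out.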

Additional observations from a re-analysis of the deposited data

How the results depend on the processing

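Under each of the 17 alternatives run, 0 collagen chains passed limma's test at an adjusted p under 0.05, and the smallest adjusted p of a chain in any of them was 0.177. With 1 library left out, the number of genes called among all tested ran from 0 to 13 and among pathway genes from 0 to 1, the upper values without Jintang 3. The median log2 fold change of the chains was -0.026 with no filter and ran from -0.019 (without Tibetan 3) to 0.30 (without Tibetan 2) with 1 library left out. Of 26 named chains tested, 20 kept the sign of their log2 fold change with each library left out. With 1 library left out, the others ranged from -0.40 to 0.16 for COL14A1, -0.24 to 0.17 for COL6A1, -0.36 to 0.18 for COL6A2, -0.019 to 0.81 for COL5A2, -0.11 to 0.53 for COL18A1 and -0.26 to 0.75 for COL8A2. Median-ratio scaling gave 0.0081 for COL14A1, 0.096 for COL6A1 and 0.016 for COL6A2, and array weights 0.022 for COL6A1. The breed difference of the log2 ratio, with 1 library left out, ran from -0.19 to 0.30 for COL1A1 to COL1A2, from -0.17 to 0.22 for COL4A1 to COL4A2 and from -0.064 to 0.22 for COL6A1 to COL6A2, and with 1 added to both values the COL4A1 to COL4A2 difference was 0.0012. The cause of these changes was not tested.

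The replicate numbers of the titles gave no sign of pairing the goats: deviations from the breed mean correlated at -0.02, -0.21 and -0.47 between same-numbered goats. Between goats of different number the correlations ran from -0.34 to 0.45. With 3 goats per breed these deviations depend on one another, so the values cannot exclude that same-numbered goats were handled together. With the replicate number as a block, 0 genes and 0 collagen chains were called, and 581 genes had an unadjusted p under 0.05 instead of 806. For the collagen chains this count was 0 with no filter, 2 with the block or TPM and 5 with array weights, instead of 3, where 5.73%, 4.45%, 6.27% and 9.39% of all genes, instead of 6.17%, were past that p with no filter, the block, TPM and array weights. Medians of the network and multiplexin classes, with fewer than 3 tested chains, were not recomputed, nor was that of the transmembrane chains at a filter of 5 FPKM. FPKM values without counts give no counting error, so chains near 1 FPKM cannot be given a detection limit.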
